A study of Mus musculus with 6 samples.

Results

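The genes described here encode components of the extracellular matrix, the integrin receptors that bind it, and the proteases and protease inhibitors that remodel it. They were taken from a deposited table of mouse gene expression by symbol alone. The rule took symbols of collagens (Col followed by a number and a chain), laminins (Lama, Lamb, Lamc), numbered integrins (Itga, Itgb), fibulins (Fbln), ADAMTS proteases, matrix metalloproteinases (Mmp) and their tissue inhibitors (Timp), together with Dcn, Lum, Fn1, Sparc and Sparcl1. This gave 50 of 13724 gene entries. Lum and Fn1 have no row and are not analysed here.

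The mice were wild type (C57Bl6/J) and were warmed in 3 numbered warm challenges, after which the anterior hypothalamus was dissected from 0.5 mm brain sections. Each challenge gave 1 library of RNA bound to ribosomes carrying phosphorylated S6 (the immunoprecipitate, IP; antibody against sites 244 and 247) and 1 library of total RNA from the same challenge (the input), so that there were 3 IP and 3 input libraries. All 6 came from warm-challenged animals of the same genotype, and there was no group at another temperature, so no value below can be tied to warmth. The age and sex of the mice, and whether animals were pooled within a challenge, could not be taken from the labels.

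In brain, the matrix forms the basement membranes of blood vessels and meninges, made chiefly of type IV collagen and laminins, and a looser net of proteoglycans and hyaluronan around neurons. Integrins are pairs of one alpha and one beta chain that span the cell membrane and link laminin, collagen or fibronectin to the cytoskeleton. Metalloproteinases of the MMP and ADAMTS families cut matrix proteins, and TIMPs block them. S6 is a protein of the small ribosomal subunit whose phosphorylation follows neuronal activity, so the IP is weighted towards transcripts of cells with much phosphorylated S6.

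Levels are RPKM, read numbers scaled by gene length and by the size of the library, as the authors deposited them. Differences are log2 folds of IP over input on log2(RPKM + 1), a scale that understates changes of genes with low RPKM. Genes that reached 1 RPKM in at least 3 libraries, 12328 in all, were tested with limma, a moderated linear model, with Benjamini-Hochberg adjustment over all of them (threshold 0.05). The other genes are called under the filter. Summed RPKM lay between 374708 and 496125 in IP and between 384389 and 476059 in input libraries. The median log2 fold of all genes tested was -0.18, so a fold near that value is no departure from the bulk of genes. IP 1 stood apart from the other libraries on the next principal component after the one that parted IP from input (0.44 against -0.18 to 0.09, with 26.0% of the variance). Labels name the tissue as preoptic neurons, but markers of other cells were present. Summed over 10 oligodendrocyte markers, levels were 373 to 554 RPKM in IP and 1105 to 1219 RPKM in input, and 8 of these 10 were lower in IP. Over 9 of 10 neuronal markers that have a row the sums were 4081 to 7515 RPKM in IP and 4155 to 5746 RPKM in input, and 0 of the 9 passed the test. Snap25 made up most of these sums. Without it they were 1917 to 2123 RPKM in IP and 1364 to 1603 RPKM in input, without overlap, and 8 of the 9 folds were positive (median log2 fold 0.52). Gad1, Nefl and Slc32a1 lay above input in every IP library. Markers of red blood cells (4 of 5 with a row) summed to 202 to 567 RPKM in IP and 14.1 to 50.3 RPKM in input, and all 3 tested were higher in IP. Fewer cells of a type and less RNA per cell cannot be told apart in such bulk samples.

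Most of these genes were scarce. Their median level, as the mean over 6 libraries, was 1.10 RPKM, against 8.37 RPKM for all listed genes, and 24 of 50 averaged under 1 RPKM. Only 3 averaged over 50 RPKM, namely Timp2 (108 RPKM), Sparc (76.3 RPKM) and Sparcl1 (58.8 RPKM), which ranked 740, 1022 and 1384 among 13724 entries. These 3 genes held 55.0% to 65.9% of the summed RPKM of all 50 in IP and 57.6% to 65.2% in input. Of 139 mouse RefSeq symbols that match the same rule, 91 have no row in the table and are not analysed here. Among these are the fibrillar collagens Col1a1, Col1a2 and Col3a1 and the basement membrane chains Col4a1, Lama4 and Lama5. The table holds no value below 0.101 RPKM in any library.

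No member passed the test in either direction. Of 27 members with enough signal, limma called 0 higher and 0 lower in IP, against 4.19% of all genes tested (0.892% higher and 3.29% lower). At an unadjusted p under 0.05 there were 7 of 27 (25.9%), 2 higher and 5 lower, near the 24.4% of all genes tested (5.04% higher and 19.3% lower). Adamts6 and Itgb4 passed the filter through input libraries only, so counts and medians over the 27 describe them and support no direction. The median log2 fold of the 27 was -0.18, the same as that of all genes to 2 decimals, and single folds ran from -1.06 (Adamts6) to 0.69 (Itga3). Across all 50 members, the 3 IP values lay above all 3 input values for 3 (6%) and below them for 11 (22%). The same shares over all listed genes were 6.46% and 23.5%. Of the 27 tested, 3 lay above and 6 below, against 6.85% and 23.5% of all genes tested. Within challenges, IP exceeded its own input in all 3 pairs for 5 members and was below it in all 3 for 17, or 10% and 34%, against 13.4% and 37.5% of all listed genes. Read against these shares, the members' counts were near the background of the table. A lack of calls with 3 libraries in each group does not show that a gene was unchanged.

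**Figure D1:**
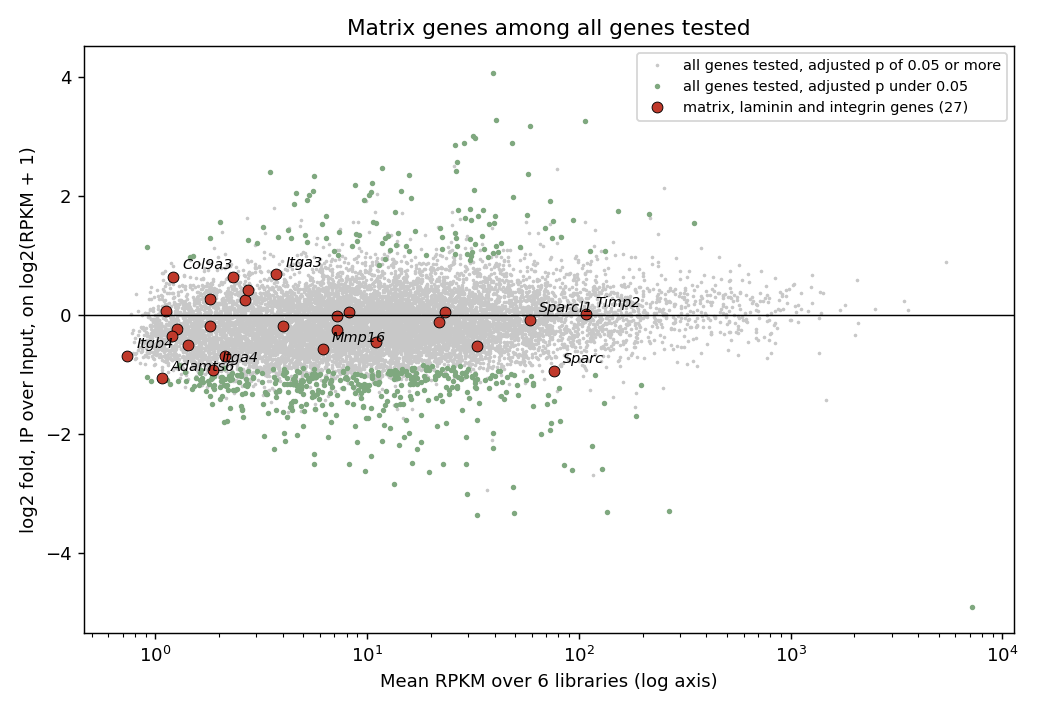
Each point is a gene, with its mean RPKM over 6 libraries on a log axis (x) and its log2 fold of IP over input (y). Grey points are genes that did not pass the test, green points those with an adjusted p under 0.05, and red points the 27 matrix, laminin and integrin genes tested. The red points lie between -1.06 and 0.69, most of them at low levels, and some are labelled by name.

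Omission of IP 1, the library that stood apart, changed the count to 4 lower and 0 higher of 27 (14.8%, against 13.8% of all genes in that fit, 3.62% higher and 10.2% lower). The 4 were Sparc, Itgb4, Adamts6 and Itga4. In that fit Itgb4, Adamts6 and Itga4 passed the filter through their input libraries alone, so their negative sign was built in. Omitting any other single library gave 0 calls, in fits that called only 21 to 94 of all genes (12054 to 12224 tested). With the warm challenge as a block, which compares each IP with its own input, Adamts6 was called lower (adjusted p = 0.0475), against 5.32% of all genes (1.33% higher and 3.99% lower). With no filter on low values Adamts6 was again the 1 member called lower, against 3.34% of all genes (0.721% higher and 2.62% lower). With no filter and the block together Adamts6 and Itga4 were called lower, against 4.18% of all genes (1.02% higher and 3.16% lower). Median scaling and quantile normalization gave 0 members, against 1.76% (0.925% higher and 0.835% lower) and 2.05% (1.05% higher and 1.01% lower) of all genes. Without both libraries of challenge 1 and with the block, 5 of 22 members were called, against 34.6% of all genes (12.6% higher and 22% lower). They were Itga3 and Itgb1bp1, higher, and Col4a3bp, Mmp16 and Sparc, lower.

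Promoters of Itga3 and Itga4 are shown first. These genes were the 2 integrin alpha genes tested, and their IP libraries lay on opposite sides of the inputs. The letters run from 250 bases before to 50 bases after the start of the gene, 5′ to 3′ on the gene's strand, from RefSeq (build GRCm38.p6, not the build of the deposited values). Capitals mark GC boxes (GGGCGG on either strand). The Itga3 window is chr11:95076665-95076964 on the minus strand and the Itga4 window is chr2:79255176-79255475 on the plus strand.
Itga3: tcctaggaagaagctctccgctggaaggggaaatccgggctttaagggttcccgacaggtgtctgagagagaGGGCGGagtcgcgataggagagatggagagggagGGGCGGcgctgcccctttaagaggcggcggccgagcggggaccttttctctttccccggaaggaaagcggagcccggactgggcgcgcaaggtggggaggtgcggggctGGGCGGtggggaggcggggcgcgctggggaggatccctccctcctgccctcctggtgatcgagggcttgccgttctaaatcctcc
Itga4: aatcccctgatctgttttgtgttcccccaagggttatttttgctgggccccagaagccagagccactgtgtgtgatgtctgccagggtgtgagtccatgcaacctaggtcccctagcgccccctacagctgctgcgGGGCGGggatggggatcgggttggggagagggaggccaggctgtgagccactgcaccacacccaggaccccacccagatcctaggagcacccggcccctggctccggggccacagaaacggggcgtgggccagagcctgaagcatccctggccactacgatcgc
The Itga3 window holds 3 GC boxes and 24 CpG dinucleotides at 66.7% GC, and the Itga4 window holds 1 GC box and 10 CpG at 64.3% GC. RefSeq promoter windows were found for 34 of the 50 members (37 windows). A GC box stood in windows of 23 of these 34 genes, and in 35.7% of all 32851 windows in the table. The pattern TGANTCA is a loose form of the AP-1 motif of Fos and Jun proteins, with any base in the middle. It stood in windows of 2 of 34 genes, Itga3 and Itga9, against 7.81% of all windows. The Itga3 match lies in another window, at a later start (chr11:95069149-95069448), and reads TGAATCA. The TATAAA motif stood in windows of 2 of 34 genes, against 13.6% of windows. The CRE motif TGACGTCA was in windows of 0 of 34 genes, against 1.79% of windows. All motifs were searched on both strands. Members were counted by gene, in any of its windows, and the background by single window, so the shares differ in unit. These are letter matches, and nothing about binding is drawn from them.

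Integrin alpha chains determine which ligand the receptor binds. Itga3 encodes a chain of a laminin receptor. It stood at 5.77, 3.80 and 4.97 RPKM in IP libraries 1, 2 and 3, against 3.28, 2.13 and 2.41 RPKM in inputs 1, 2 and 3. Every IP value was above every input value, and IP was above its own input in all 3 pairs by 0.61 to 0.81 on the log2 scale. The fold did not pass the test (log2 fold 0.69, SE 0.23, adjusted p = 0.115).

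Itga4 encodes a chain of receptors for fibronectin and for VCAM-1, best known from white blood cells. Its levels were 1.204, 0.736 and 0.964 RPKM in IP, against 3.71, 1.77 and 2.84 RPKM in input. All IP values were under all input values, and the log2 fold of -0.91 (SE 0.25) did not pass (adjusted p = 0.0715). Without IP 1 it was called lower (log2 fold -1.0, adjusted p = 0.0466). In that fit Itga4 passed the filter through its input libraries alone, so its negative sign was built in. Microglial markers, 10 of 12 of which have a row, summed to 14.4 to 20.7 RPKM in IP and 18.4 to 36.1 RPKM in input, with overlap, and 0 of 5 tested passed. Their part in the Itga4 values was not tested.

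The other 3 integrin alpha genes with a row were under the filter. Itga2b, the platelet chain, lay between 0.457 and 0.902 RPKM in IP and 0.428 and 1.10 RPKM in input. Itga9 lay between 0.254 and 1.06 RPKM in IP and 0.361 and 1.04 RPKM in input, and Itga11, a chain of a collagen receptor, between 0.148 and 0.279 RPKM in IP and 0.261 and 0.377 RPKM in input. The groups overlapped for all 3.

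Integrin beta chains were represented by 5 genes, of which 3 were tested. Itgb1, the partner of most alpha chains, was the most abundant integrin at 11.4, 5.29 and 5.13 RPKM in IP, against 9.91, 6.28 and 5.30 RPKM in input. Both libraries of challenge 1 were the highest of their group, and the groups overlapped (log2 fold -0.02, SE 0.33, adjusted p = 0.981). Its plain mean was higher in IP (7.29 RPKM in IP, 7.16 RPKM in input) although its log2 fold was just below 0.

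Itgb8, whose receptor activates latent TGF-beta, stood at 3.40, 2.99 and 4.75 RPKM in IP, against 3.96, 3.88 and 4.998 RPKM in input. IP was below its own input in every pair, with differences of -0.29 to -0.06 on the log2 scale, and the groups overlapped (log2 fold -0.18, adjusted p = 0.687).

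Itgb4, a chain of hemidesmosomes that also occurs on Schwann cells and endothelium, had 0.626, 0.289 and 0.118 RPKM in IP, against 1.13, 1.08 and 1.17 RPKM in input. The inputs were nearly alike and all above the IP values. Itgb4 passed the filter through its input libraries alone, so that a negative fold was built in (log2 fold -0.68, SE 0.22, adjusted p = 0.0992). Without IP 1 it was called lower (log2 fold -0.83, adjusted p = 0.0389).

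The remaining beta chains, which pair with the alpha V chain, were under the filter. Itgb3 had 0.206, 0.130 and 0.257 RPKM in IP, against 0.434, 0.465 and 0.591 RPKM in input, without overlap. Itgb5 had 0.798, 0.483 and 0.234 RPKM in IP and 0.747, 0.988 and 0.750 RPKM in input, and its groups overlapped. Summed over the 10 integrin chains with a row, levels were 24.7, 15.1 and 18.5 RPKM in IP and 25.3, 18.2 and 19.9 RPKM in input.

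**Figure D2:**
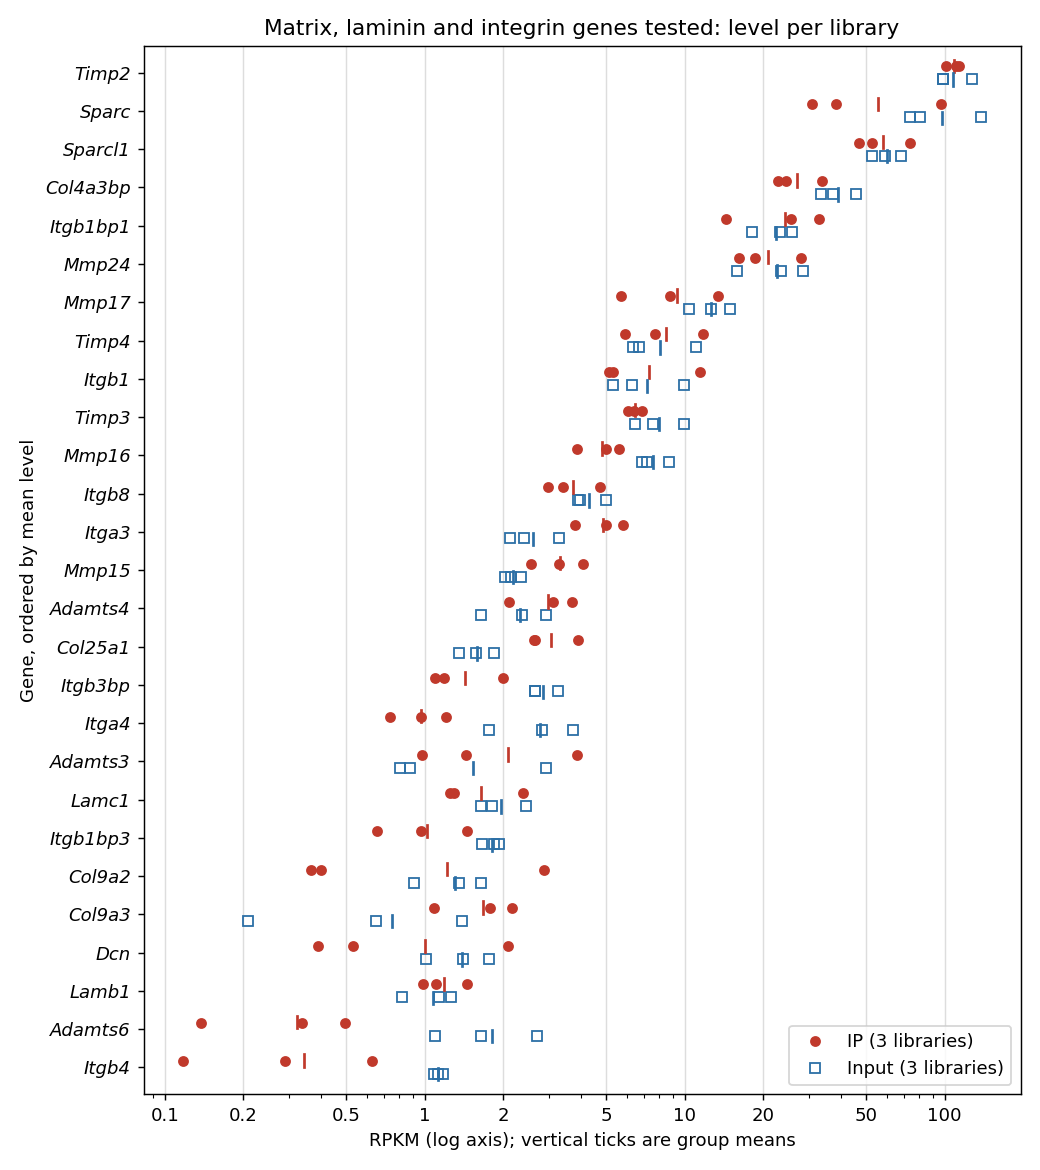
Levels of the 27 genes tested in each library, in RPKM on a log axis (x), with genes ordered by mean level (y). Filled red circles are the 3 IP libraries, open blue squares the 3 input libraries, and vertical ticks the group means. IP circles lie right of all squares for Itga3, Col25a1 and Mmp15 and left of all squares for Mmp16, Itgb3bp, Itga4, Itgb1bp3, Adamts6 and Itgb4.

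Collagens with a row were 6 of the 44 RefSeq symbols of that family, and 3 were tested. Col25a1 encodes a transmembrane collagen made by neurons. It stood at 2.66, 2.63 and 3.89 RPKM in IP, against 1.36, 1.58 and 1.84 RPKM in input. Every IP value was above every input value, and IP was above its own input in all 3 pairs by 0.49 to 0.78 on the log2 scale, but the fold did not pass (log2 fold 0.64, SE 0.22, adjusted p = 0.121). With IP 1 left out and libraries scaled to a common median, Col25a1 was called higher and Sparc lower, against 9.32% of all genes (4.73% higher and 4.59% lower).

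Col9a2 and Col9a3 encode chains of type IX collagen, best known from cartilage. Col9a3 had 1.79, 1.08 and 2.16 RPKM in IP, against 0.210, 0.651 and 1.39 RPKM in input, above its own input in all 3 pairs but with overlapping groups (log2 fold 0.65, SE 0.29, adjusted p = 0.209). Col9a2 had 0.399, 2.88 and 0.365 RPKM in IP, against 1.64, 1.36 and 0.913 RPKM in input. For Col9a2, IP 2 held the highest of all 6 values and the other IP libraries the lowest (log2 fold -0.23, SE 0.39, adjusted p = 0.763). The sign of the Col9a2 fold was not stable, as it was 0.11 after quantile normalization, 0.012 without IP 1 and 0.030 without IP 3.

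The other 3 collagens averaged under 1 RPKM. Col4a2, a chain of basement membrane collagen, had 0.719, 0.350 and 0.549 RPKM in IP and 0.832, 0.599 and 0.694 RPKM in input, with IP below its own input in every pair and overlapping groups. Col8a1, which forms hexagonal networks, had 0.196, 0.424 and 0.201 RPKM in IP, against 0.482, 0.523 and 0.868 RPKM in input, without overlap. Col27a1, a fibrillar collagen, was the lowest member, at 0.119 to 0.218 RPKM in IP and 0.178 to 0.208 RPKM in input.

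Laminins are trimers of an alpha, a beta and a gamma chain, and 5 of 11 RefSeq laminin symbols have a row. Lamc1, the gamma chain of most basement membranes, stood at 2.38, 1.25 and 1.30 RPKM in IP, against 1.82, 1.65 and 2.45 RPKM in input (log2 fold -0.19, adjusted p = 0.685). Lamb1, a beta chain of the same trimers, stood at 1.11, 0.981 and 1.46 RPKM in IP, against 0.815, 1.14 and 1.26 RPKM in input (log2 fold 0.07, adjusted p = 0.867). The groups overlapped for both genes, and neither moved the same way in all pairs.

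Lama2, the alpha chain of muscle and of the glial side of vessels, was under the filter, with 0.378, 0.146 and 0.285 RPKM in IP and 0.717, 0.462 and 0.404 RPKM in input. All IP values of Lama2 were below all inputs. Lama3 and Lamb3, chains of an epithelial laminin, stayed between 0.206 and 0.706 RPKM in IP and 0.300 and 0.623 RPKM in input, with overlap.

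Matricellular proteins bind the matrix without building it. Sparc, a collagen-binding glycoprotein, stood at 96.5, 38.3 and 30.8 RPKM in IP, against 138, 73.7 and 80.6 RPKM in input. Challenge 1 gave the highest value in both fractions, and IP was below its own input in all 3 pairs, with differences of -0.51, -0.93 and -1.36 on the log2 scale. Since IP 1 exceeded inputs 2 and 3, the groups overlapped and the fold did not pass (log2 fold -0.93, SE 0.42, adjusted p = 0.213). Without IP 1, Sparc was called lower (log2 fold -1.42, adjusted p = 0.0239).

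Sparcl1, also called hevin, is a relative of Sparc that astrocytes secrete. It stood at 73.6, 46.8 and 52.7 RPKM in IP, against 67.9, 52.7 and 59.2 RPKM in input. The groups overlapped and the fold was close to 0 (log2 fold -0.07, SE 0.25, adjusted p = 0.895). The 10 astrocyte markers summed to 296 to 322 RPKM in IP and 315 to 432 RPKM in input, with 0 of 10 past the test, and most of the sum was Aldoc. Without Aldoc the sums were 64.9 to 116 RPKM in IP and 87.4 to 155 RPKM in input, with overlap, and 8 of the 10 folds were negative. Aqp4 and Gfap lay below input in every IP library (log2 folds -1.14 and -1.07, adjusted p = 0.0616 and 0.0834), and with the block Aqp4 was called lower (adjusted p = 0.0400). Aldh1l1 lay above its own input in all 3 pairs (log2 fold 0.30, adjusted p = 0.517), and S100b also had a positive fold (0.07). The median log2 fold of the 10 markers was -0.33, against -0.18 for all genes tested. The part of astrocytes in the values of Sparc and Sparcl1 was not tested.

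Dcn encodes decorin, a small proteoglycan on collagen fibrils. It had 0.389, 0.530 and 2.10 RPKM in IP, against 1.41, 1.01 and 1.77 RPKM in input (log2 fold -0.34, SE 0.32, adjusted p = 0.550). IP 3 held the highest value of all 6 and the other IP libraries the lowest. The fibulins, which bridge matrix fibres, were both under the filter. Fbln2 had 0.385, 0.114 and 0.217 RPKM in IP, against 0.451, 0.479 and 0.594 RPKM in input, without overlap, and Fbln7 0.344 to 0.745 RPKM in IP and 0.706 to 1.17 RPKM in input.

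Vessel and meningeal cells make much of this matrix, but most endothelial and mural markers have no row. Of 15 endothelial markers 3 have a row, summing to 2.38 to 3.44 RPKM in IP and 2.83 to 6.32 RPKM in input with overlap, and the other 12 are not analysed here. For mural cells 5 of 12 markers have a row, summing to 2.38 to 3.18 RPKM in IP, against 5.78 to 7.69 RPKM in input without overlap. This gap came mostly from Rgs5, the 1 mural marker called lower. Without Rgs5 the mural sums were 1.67 to 2.18 RPKM in IP and 2.07 to 2.82 RPKM in input, and they overlapped. Fibroblast and leptomeningeal markers (8 of 12 with a row) summed to 50.9 to 171 RPKM in IP, against 210 to 367 RPKM in input, again without overlap and mostly from Ptgds (45.6 to 158 RPKM in IP, 200 to 356 RPKM in input). Without Ptgds these sums were 5.36 to 13.0 RPKM in IP and 9.20 to 11.2 RPKM in input, and they overlapped. Igf2 also lay below input in every IP library, whereas Slc6a20a lay above it, and 0 of the 4 tested passed. IP values of Sparc, Itga4, Itgb4, Lama2, Col8a1 and Fbln2 lay below their own inputs in all pairs. Those of Dcn, Lamb1, Lamc1 and Itgb1 did not. In all, 17 of 50 members (34%) lay below in all pairs, against 37.5% of all listed genes. The part of vessel and meningeal cells in these values was not tested.

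ADAMTS proteases had 9 rows, of which 3 were tested. Adamts6 encodes a secreted protease of the family. It stood at 0.336, 0.138 and 0.495 RPKM in IP, against 1.10, 1.65 and 2.71 RPKM in input. The groups did not overlap, and the log2 fold of -1.06 (SE 0.26) was the largest in size among the 27 members tested. It just missed the threshold (adjusted p = 0.0522). The call appeared with the block (adjusted p = 0.0475), with no filter on low values (adjusted p = 0.0463) and without IP 1 (adjusted p = 0.0464). Adamts6 passed the filter through its input libraries alone, which fixed the sign of its fold.

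Adamts3, which processes procollagen, had 0.974, 1.44 and 3.84 RPKM in IP, against 0.875, 0.806 and 2.93 RPKM in input. Challenge 3 was the highest in both fractions, and IP was above its own input in all 3 pairs by 0.07 to 0.43 on the log2 scale (log2 fold 0.27, SE 0.40, adjusted p = 0.723). Adamts4, an aggrecanase, had 2.11, 3.68 and 3.12 RPKM in IP, against 2.36, 1.65 and 2.94 RPKM in input (log2 fold 0.26, adjusted p = 0.568), with overlapping groups.

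The remaining 6 ADAMTS genes were Adamts1, Adamts9, Adamts15, Adamts16, Adamts17 and Adamtsl1, all under the filter. Adamts9, a versican-cutting protease, had 0.276, 0.290 and 0.229 RPKM in IP, against 0.655, 0.681 and 0.569 RPKM in input. Its 6 values formed narrow groups that did not overlap. The other 5 overlapped, from 0.115 (Adamts16) to 1.35 RPKM (Adamts1) in IP and from 0.330 (Adamtsl1) to 1.01 RPKM (Adamts16) in input.

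Among the 8 MMPs with a row, 4 were tested, and the 4 others (Mmp2, Mmp9, Mmp11 and Mmp23) were under the filter. Mmp24, which is made mainly in the nervous system and cuts N-cadherin, was the most abundant at 16.3, 28.1 and 18.6 RPKM in IP, against 23.5, 28.6 and 15.9 RPKM in input (log2 fold -0.11, SE 0.29, adjusted p = 0.862). Its groups overlapped throughout.

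Mmp17, which is anchored to the membrane by a lipid, stood at 8.81, 5.71 and 13.5 RPKM in IP, against 12.6, 10.4 and 14.9 RPKM in input. Its IP was below its own input in all 3 pairs, with overlapping groups (log2 fold -0.46, SE 0.30, adjusted p = 0.383). Mmp16, a transmembrane MMP, stood at 5.57, 3.86 and 4.96 RPKM in IP, against 7.16, 6.88 and 8.67 RPKM in input. All IP values of Mmp16 were below all inputs, and the fold did not pass (log2 fold -0.57, SE 0.22, adjusted p = 0.155).

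Mmp15, another transmembrane MMP, lay on the other side, at 2.57, 4.07 and 3.28 RPKM in IP, against 2.15, 2.03 and 2.36 RPKM in input. The groups did not overlap (log2 fold 0.42, SE 0.22, adjusted p = 0.269). The secreted gelatinases were near the lower end of the table. Mmp9 had 0.410, 0.345 and 1.32 RPKM in IP, against 0.232, 0.441 and 0.191 RPKM in input, so that IP 3 alone stood out. Mmp2 had 0.125, 0.356 and 0.361 RPKM in IP and 0.610, 0.141 and 0.412 RPKM in input. Mmp11 and Mmp23 lay between 0.116 and 0.698 RPKM in IP and 0.190 and 1.21 RPKM in input, with overlap.

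**Figure D3:**
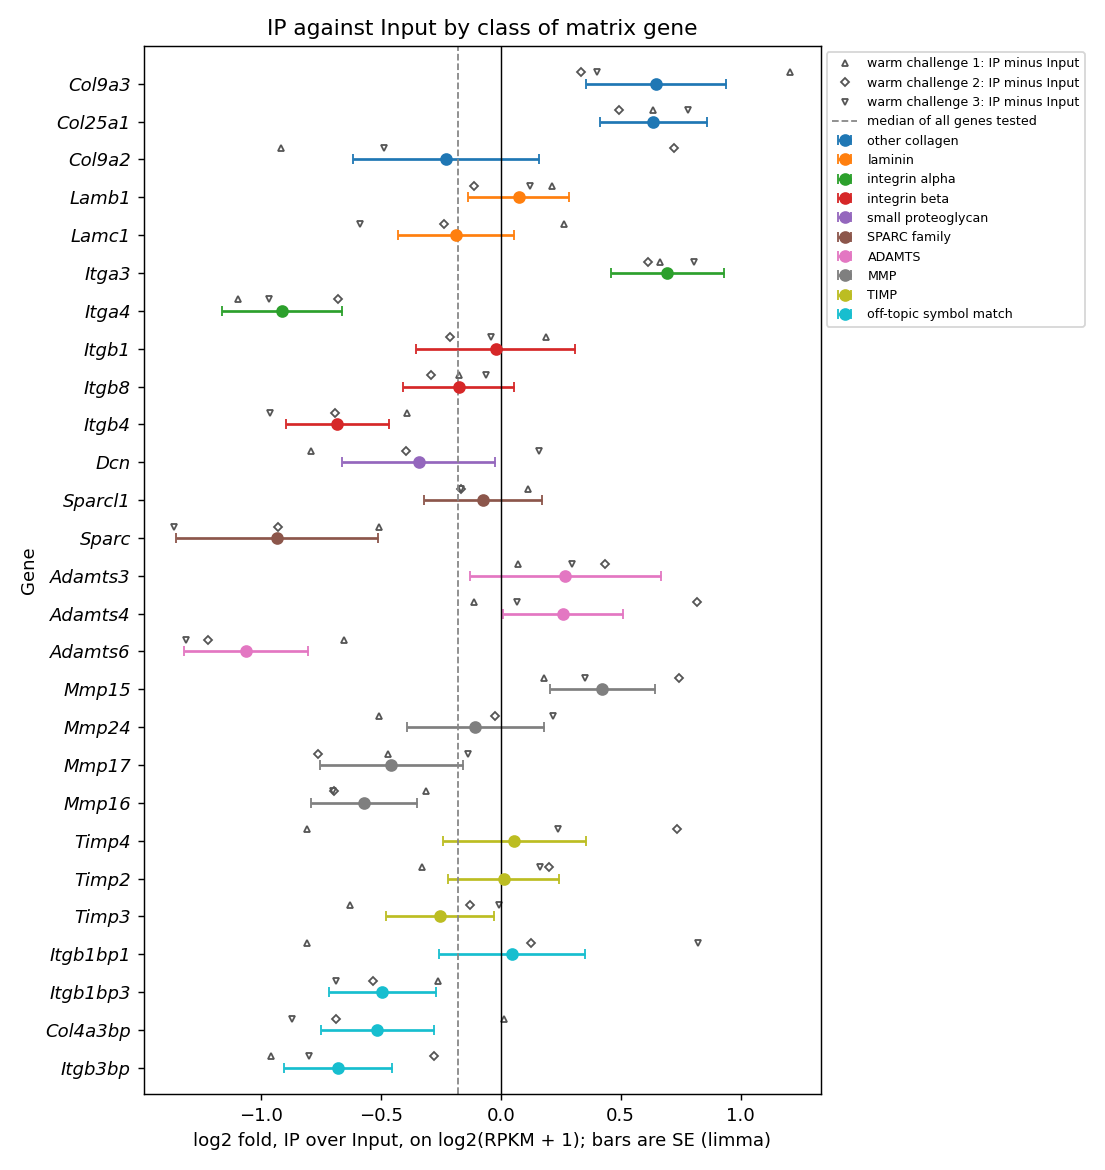
Log2 folds of IP over input for the 27 genes tested (x) by gene and class (y), with bars for the SE from limma. Open grey marks give IP minus input on log2(RPKM + 1) in each of the 3 warm challenges, and the dashed line is the median of all genes tested, -0.18. The 3 challenges lie close together for Itga3 and Col25a1 and far apart for Col9a2, Timp4 and Itgb1bp1.

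Of 4 RefSeq TIMP symbols 3 have a row, and all 3 were tested. Timp2, which inhibits MMPs and also takes part in the activation of pro-MMP2 at the cell surface, was the most abundant member, at 101, 114 and 110 RPKM in IP, against 127, 98.6 and 98.2 RPKM in input. The groups overlapped, and the fold was the smallest in size among the 27 members (log2 fold 0.01, SE 0.23, adjusted p = 0.983).

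Timp3, which binds to the matrix and also inhibits ADAMTS proteases, had 6.08, 6.84 and 6.40 RPKM in IP, against 9.94, 7.56 and 6.43 RPKM in input. IP was below its own input in each pair, with differences of -0.63 on the log2 scale in challenge 1 and -0.0049 in challenge 3 (log2 fold -0.25, SE 0.22, adjusted p = 0.527). Timp4 had 5.92, 11.8 and 7.68 RPKM in IP, against 11.1, 6.67 and 6.35 RPKM in input. IP was below its input in challenge 1 and above it in the other two (log2 fold 0.06, SE 0.30, adjusted p = 0.937). Summed over the 3 TIMPs, levels were 113 to 132 RPKM in IP and 111 to 148 RPKM in input.

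A further 4 members match the rule by their letters but encode no matrix or integrin protein. Col4a3bp, the ceramide transfer protein, had 33.8, 22.8 and 24.6 RPKM in IP, against 33.5, 37.3 and 45.7 RPKM in input (log2 fold -0.51, adjusted p = 0.218). Itgb1bp1, a protein that binds the tail of the integrin beta chain, had 14.4, 25.6 and 33.0 RPKM in IP, against 25.9, 23.3 and 18.2 RPKM in input (log2 fold 0.05, adjusted p = 0.951). The groups overlapped for both. Itgb1bp3, listed in RefSeq as Nmrk2, a nicotinamide riboside kinase, had 1.45, 0.971 and 0.654 RPKM in IP, against 1.93, 1.85 and 1.66 RPKM in input (log2 fold -0.49, adjusted p = 0.210). Itgb3bp, a centromere protein, had 1.18, 2.01 and 1.10 RPKM in IP, against 3.24, 2.65 and 2.65 RPKM in input (log2 fold -0.68, adjusted p = 0.112). Neither of these overlapped. Without the 4, the count of calls stayed at 0 of 23, and the median log2 fold was -0.11.

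**Figure D4:**
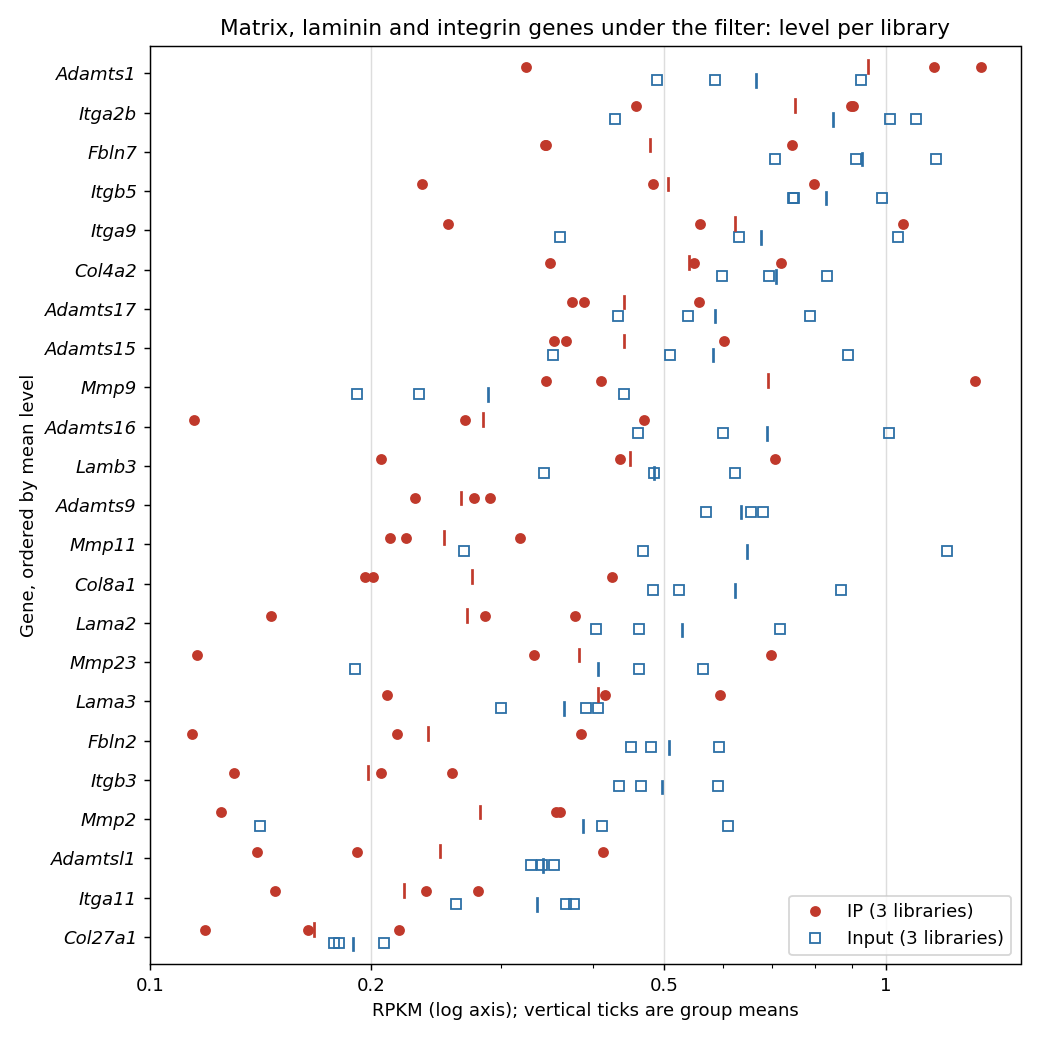
Levels of the 23 members under the filter in each library, in RPKM on a log axis (x), with genes ordered by mean level (y). Filled red circles are IP libraries, open blue squares input libraries, and vertical ticks the group means. The IP circles lie left of all squares for Adamts9, Col8a1, Lama2, Fbln2 and Itgb3.

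The 23 members under the filter spanned 0.114 to 1.35 RPKM. IP lay below input without overlap for 5 of them and above for 0. Over the 1396 listed genes under the filter these shares were 23.4% and 3.08%. IP was below its own input in all 3 pairs for 7 of the 23 and above it for 0, against 37.9% and 8.31% of those 1396 genes. When the test was run with no filter, none of the 23 was called, nor with the block added.

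Matrix-related genes that the rule does not take in were read from a list of 114 symbols, of which 79 have a row and 56 were tested. Of these, 1 was higher in IP and 4 were lower, and the other 51 missed the threshold. The 5 calls were 8.93% of the 56, against 4.19% of all genes tested (0.892% higher and 3.29% lower). Of the 4 lower, Omd and Loxl2 passed the filter through input libraries only. The share therefore describes the list and supports no direction. The list was drawn up with earlier results of these data known. Their median log2 fold was -0.05. Tnr, the tenascin of perineuronal nets, stood at 11.9, 16.1 and 23.2 RPKM in IP, against 4.18, 4.42 and 6.56 RPKM in input (log2 fold 1.55, SE 0.28, adjusted p = 0.0274). It was the only gene of the list called higher, and its call also held after median scaling (adjusted p = 0.0201) and quantile normalization (adjusted p = 0.0162).

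Hapln2, a link protein of hyaluronan at nodes of Ranvier, fell to 1.85, 1.09 and 1.07 RPKM in IP, against 4.55, 3.82 and 4.02 RPKM in input (log2 fold -1.15, adjusted p = 0.0326). Its relative Hapln4 stood at 29.0, 60.7 and 58.1 RPKM in IP, against 25.7, 20.2 and 15.2 RPKM in input, without overlap, and did not pass (log2 fold 1.19, adjusted p = 0.0696). Link proteins of the same family thus had folds of opposite sign. Summed over the perineuronal net list (11 of 15 symbols with a row), levels were 77.8, 102 and 110 RPKM in IP, against 66.3, 50.5 and 60.3 RPKM in input. This gap came from Hapln4 and Tnr, and without them the sums overlapped. Over the 8 genes of the list tested, 1 was called higher and 1 lower, and the median log2 fold was 0.055.

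The adaptor Lims1, which ties integrin-linked kinase to the cytoskeleton, fell to 4.63, 3.54 and 3.14 RPKM in IP, against 10.4, 9.83 and 9.32 RPKM in input (log2 fold -1.20, adjusted p = 0.0266). It was the 1 gene called among 16 integrin partners tested. Omd, osteomodulin, a small proteoglycan, fell to 0.913, 0.579 and 0.325 RPKM in IP, against 5.16, 3.39 and 1.79 RPKM in input (log2 fold -1.41, adjusted p = 0.0420). Loxl2, a collagen cross-linking oxidase, fell to 0.899, 0.331 and 0.850 RPKM in IP, against 4.41, 2.77 and 2.05 RPKM in input (log2 fold -1.24, adjusted p = 0.0421). Omd and Loxl2 each passed the filter through their input libraries alone, so their negative sign was built in. With the block, P4ha3, a collagen prolyl hydroxylase (log2 fold -0.97, adjusted p = 0.0471, against 0.0502 when unblocked), and Htra1, a serine protease (log2 fold -1.08, adjusted p = 0.0372, against 0.115 when unblocked), were called lower too.

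Calls in this list rested on all 6 libraries or on the omission of IP 1. The count was 14 without IP 1 (3 higher and 11 lower), or 25% of 56, against 13.8% of all genes in that fit (3.62% higher and 10.2% lower). Among those called lower there, Omd, Loxl2, Adam17 and Pcolce2 passed the filter through input libraries alone, so this share supports no direction. The count was 0 without any other single library, in fits that called only 21 to 94 of all genes (12054 to 12224 tested). After median scaling Tnr alone was left. The 8 oligodendrocyte markers and Rgs5 given above were lower in the same IP libraries as these 4 genes, and the part of those cells in them was not tested.

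**Figure D5:**
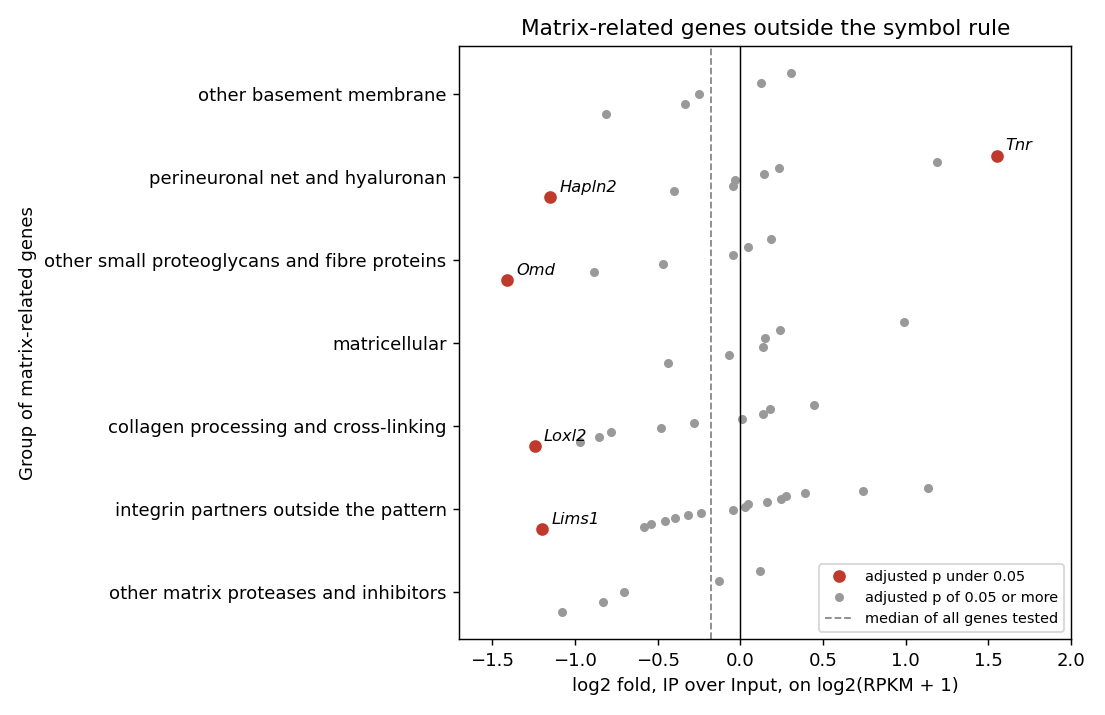
Log2 folds of IP over input (x) for the 56 matrix-related genes tested, by group (y). Red points had an adjusted p under 0.05 and are named, grey points did not, and the dashed line is the median of all genes tested, -0.18. Tnr lies at 1.55, and Omd, Loxl2, Lims1 and Hapln2 lie between -1.41 and -1.15.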

How the data were processed

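Values are RPKM per gene on a linear scale in a single table that the authors deposited, 1 column for each library. The submitters' processing notes name mm9 as build. Which aligner, counting tool and annotation were used is not given in the sources used here. Amplification of cDNA before sequencing, per the labels' protocols, can add spread at low levels. RPKM values hold no read counts. Ratios of values under 0.6 RPKM between libraries fitted several relative depths about equally, so the depth is unknown and no interval for counting error is given.

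Members were taken by symbol, and 48 matched a current RefSeq symbol and 2 an older one (assembly GRCm38, names only). In all, 13712 symbols stand on 13724 entries. Every member was kept, and the 27 that reached 1 RPKM in at least 3 libraries were tested. All genes were fitted together with limma 3.58.1 in R 4.3.3 on log2(RPKM + 1) with a mean-variance trend, two-sided, without a block. The code was tested on simulated data. Python 3.11.15 with pandas 2.3.3, numpy 2.4.6 and matplotlib 3.10.9 served for counts and plots. Members, lists and tests were chosen with earlier results of these data known. The naming rule asked for members past the threshold, for Dcn, Sparc and Sparcl1, and from each class for the 2 with the smallest p and the most abundant; here every member is accounted for. P-values set the difference against the spread between 3 libraries in each group, moderated over all genes tested. With the block, the spread is that of the differences between each IP and its own input. Either spread may be technical in part.

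Input and IP share the number of a warm challenge in the labels and were taken as paired on that ground. Across genes, deviations of IP and input from their group means had correlations of 0.05, 0.61 and 0.27 in challenges 1, 2 and 3. The block value is given where it changes the call of a gene named here. Alternatives were the block, pseudocounts of 0.1 and 5, no filter, a filter of 5 RPKM, median scaling, quantile normalization, no trend, leaving out each library, and leaving out the off-topic symbols. A further 3 combinations were added after seeing the data.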

Additional observations from a re-analysis of the deposited data

How the results depend on the processing

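Of 27 members tested, 0 were called over the 6 libraries, and this count was also 0 with pseudocounts of 0.1 or 5, a filter of 5 RPKM (11 members tested), median scaling, quantile normalization, no trend and without the 4 off-topic symbols. It was 1 with the replicate block (Adamts6), 1 with no filter (Adamts6), 2 with both together (Adamts6 and Itga4) and 0 to 4 when single libraries were left out. Without both libraries of challenge 1 and with the block, a fit with 1 residual degree of freedom before moderation, 5 members were called of 22 tested and 4085 of all genes (34.6%). Without IP 1 and with median scaling 2 members and 1140 of all genes were called. These last 2 settings, and the block with no filter, were chosen after seeing the data. For all genes the count of 516 became 217 after median scaling (114 higher, 103 lower), 253 after quantile normalization (129 higher, 124 lower) and 21 to 1693 when single libraries were left out, and with the replicate block it was 656. The list of matrix-related genes gave 5 calls, 7 with the replicate block, 2 with a filter of 5 RPKM, 1 after median scaling, 2 after quantile normalization and 0 to 14 when single libraries were left out. The members' median log2 fold of -0.18 became -0.0011 after median scaling and 0.017 after quantile normalization, and lay between -0.18 and -0.040 in the omissions. The cause was not tested. Folds near 0 changed sign. After median scaling they were 0.15 for Itgb1, 0.069 for Mmp24 and 0.10 for Sparcl1. After quantile normalization they were 0.11 for Col9a2, 0.19 for Itgb1, 0.066 for Itgb8, 0.12 for Lamc1, 0.017 for Mmp24 and -0.0056 for Timp2. Over the omissions, folds ranged from -0.36 to 0.030 for Col9a2, -0.35 to 0.21 for Itgb1, -0.20 to 0.37 for Itgb1bp1, -0.018 to 0.14 for Lamb1, -0.33 to 0.075 for Mmp24, -0.26 to 0.062 for Sparcl1, -0.050 to 0.14 for Timp2 and -0.18 to 0.29 for Timp4. The other members kept the sign of their fold wherever they were tested under single changes of setting. Folds under the added combinations that leave out libraries were not compared. Read depth is unknown, so for the 23 members under the filter small differences could not be set against counting error.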
